A study of Homo sapiens with 45 samples.

Results

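The caveolins and the genes of the caveola coat and neck were followed in HCT116 cells, a line established from a human colon carcinoma. The set holds 7 genes of the 28278 names in the count table: the caveolins CAV1 and CAV2, the cavins CAVIN1 and CAVIN3, and EHD2, PACSIN2 and PACSIN3 of the caveola neck. They were taken by symbol, with earlier results of these data known. CAV2 was chosen for its lower level after HNRNPK siRNA, so its difference in that comparison is given as a description with no test. Cells had received 25 nM of siRNA for 72 hours, either a nontargeting control or an siRNA against HNRNPK, the gene of hnRNP K, which binds C-rich stretches of RNA and of single DNA strands. RNA was sequenced in 4 nontargeting libraries named siNTC5, in 4 HNRNPK siRNA libraries and in a further 2 nontargeting libraries named Scramble. For siNTC5 and for HNRNPK siRNA, TruSeq was the library kit of replicates 1 and 2 and Ligation that of replicates 3 and 4, all from RNA purified on a Maxwell instrument. The Scramble libraries were made with TruSeq from RNA purified with a Qiagen kit. All groups are transient transfections of 1 cell line, and the labels do not say whether libraries of a group came from separate cultures, so p-values measure the spread between these libraries. Chromatin immunoprecipitation gave 7 lists of domains, for lamin B1, H3K9me3 and H3K27me3 in control and depleted cells and for H3K9me2 in control cells.

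Caveolae are small flask-shaped pits of the plasma membrane. Caveolins are hairpin membrane proteins that oligomerise in the bulb of the pit, where CAV1 is required outside muscle and CAV2 joins CAV1 and depends on it to leave the Golgi. Cavins are cytosolic proteins that coat the bulb; CAVIN1 is required for the pit to form, and CAVIN3 joins it. EHD2, a membrane-bound ATPase, sits at the neck and holds caveolae at the surface. PACSIN2 and PACSIN3 are F-BAR proteins, curved dimers that bind bent membrane.

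CAV2 and CAV1 lie next to each other on the plus strand of chromosome 7, at chr7:116499738-116508541 and chr7:116525009-116561185 (GRCh38), with 16.5 kb between the end of CAV2 and the start of CAV1. The 250 bases before each annotated start are shown because the RNA of these neighbours differed in opposite directions after HNRNPK siRNA. They come from RefSeq (GRCh38.p14), plus strand, and capitals mark the GC box GGGCGG, the core of the motif bound by SP1-family factors, on either strand.
CAV2, chr7:116499488-116499737: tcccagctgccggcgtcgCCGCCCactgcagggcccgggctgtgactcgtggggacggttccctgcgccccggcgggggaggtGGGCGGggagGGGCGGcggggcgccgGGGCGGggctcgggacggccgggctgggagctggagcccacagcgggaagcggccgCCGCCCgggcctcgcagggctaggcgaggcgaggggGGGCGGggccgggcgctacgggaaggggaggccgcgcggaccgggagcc
CAV1, chr7:116524759-116525008: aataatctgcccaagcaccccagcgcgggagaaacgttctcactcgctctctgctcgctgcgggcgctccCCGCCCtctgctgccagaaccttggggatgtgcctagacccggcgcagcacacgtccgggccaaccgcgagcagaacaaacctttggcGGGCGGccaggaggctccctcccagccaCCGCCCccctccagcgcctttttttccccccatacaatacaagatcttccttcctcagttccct
In the window from 250 bases before to 50 after the start, CAV2 had 82.7% G and C, 43 CpG dinucleotides and 6 GC boxes. The same window of CAV1 had 62.3% G and C, 19 CpG and 3 GC boxes. Over 34943 such windows the median was 58.7% G and C with 14 CpG, and 44.9% held a GC box. At least 6 GC boxes stood in 2.84% of the windows and at least 3 in 15.72%. The pyrimidine-rich letters CCCTCCC, searched on both strands because hnRNP K binds C-rich strands, occurred in 26.6% of the windows. CAV1 and CAV2 each held 1 such match, and that of CAV2 overlapped a GC box. EHD2 had 71.0% G and C with 1 GC box and 2 CCCTCCC matches, and PACSIN2 had 68.7% with 2 and 0; promoter windows for the other members were not used here. These matches are letters in a window and say nothing of binding.

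The other members lie apart. CAVIN1 is at chr17:42402449-42423256, CAVIN3 at chr11:6318946-6320501, EHD2 at chr19:47713422-47743134, PACSIN2 at chr22:42869766-43015149 and PACSIN3 at chr11:47177522-47186434. Each of these 5 genes overlaps another annotated gene (LOC102725238, LOC101927825, LOC124904733, both LOC101927393 and LOC124905128, and MIR6745, in that order), while CAV1 and CAV2 overlap none. The strand used for counting is not given in the sources used here, so reads of an overlapping gene could be part of those counts.

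Total counts per library ran from 12107280 to 23633851 in the 8 libraries of the knockdown comparison and were 59209169 and 55007171 in the Scramble libraries. HNRNPK itself stood at 22.4% of the siNTC5 level in HNRNPK siRNA libraries, with a log2 fold change of -2.17. It was -2.0 within TruSeq and -2.36 within Ligation, and the interaction with kit had an adjusted p of 0.1 in edgeR. Scramble was itself lower than siNTC5 in HNRNPK, by a log2 difference of -0.28 (adjusted p = 0.00419 in edgeR). Against Scramble the HNRNPK siRNA libraries were at -1.91. Of the 8 colon epithelial markers, 7 were tested; EPCAM went from 249 to 396 CPM (read counts per library, scaled to equal TMM-normalised size), and the summed level of the 8, per library total without TMM as for the other marker sums, was 2840 to 3320 CPM in controls and 4470 to 5390 CPM after HNRNPK siRNA. Of these markers 4 rose and 2 fell: KRT19 went from 806 to 333 CPM and CLDN4 from 146 to 108 CPM. The log2 fold changes of EPCAM, CDH1, KRT8 and KRT18 were 0.67, 0.66, 0.98 and 1.41. Against Scramble they were 0.29, -0.01, 0.63 and 1.1. Those of KRT19 and CLDN4 were -1.27 and -0.44, and -2.44 and -1.67 against Scramble. CDX2 was at 0 against siNTC5 and at -0.9 against Scramble. Caveolin and cavin RNA is also abundant in fibroblasts, endothelium and adipocytes. Of 7 fibroblast markers 2 were tested, and the sum of the 7 was 45.2 to 74.6 CPM in controls and 75.2 to 120 CPM after HNRNPK siRNA, nearly all of it COL1A1, while LUM and PDGFRA had no count in the 8 libraries. The 5 endothelial markers summed to 0.891 to 1.49 and 2.23 to 3.87 CPM. None of the 4 adipocyte or 4 leukocyte markers was tested, and ADIPOQ, LPL and CD3E had no count. The part of these shifts in the results was not tested.

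After HNRNPK siRNA, 6 of the 7 genes were lower and CAV1 alone was higher. CAVIN3, CAV2, EHD2 and CAVIN1 were at less than 50% of control, PACSIN3 and PACSIN2 were moderately lower, and CAV1 was at 135% of control. Without CAV2, all 6 remaining genes passed an adjusted p of 0.05 in edgeR's quasi-likelihood test, 1 higher and 5 lower. These 6 were also chosen with earlier results of these data known, so their calls are not independent support. CAVIN3 passed the count filter through the siNTC5 libraries, which favours a fall. This knockdown was wide: 71.5% of 13933 tested genes passed, 36.1% lower and 35.5% higher, and groups did not overlap in 56.5%. A call or a separation of the groups is therefore the common case among these genes, and the sizes carry more than the count. In bulk RNA, fewer cells of a type and less RNA per cell cannot be told apart.

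**Figure D1:**
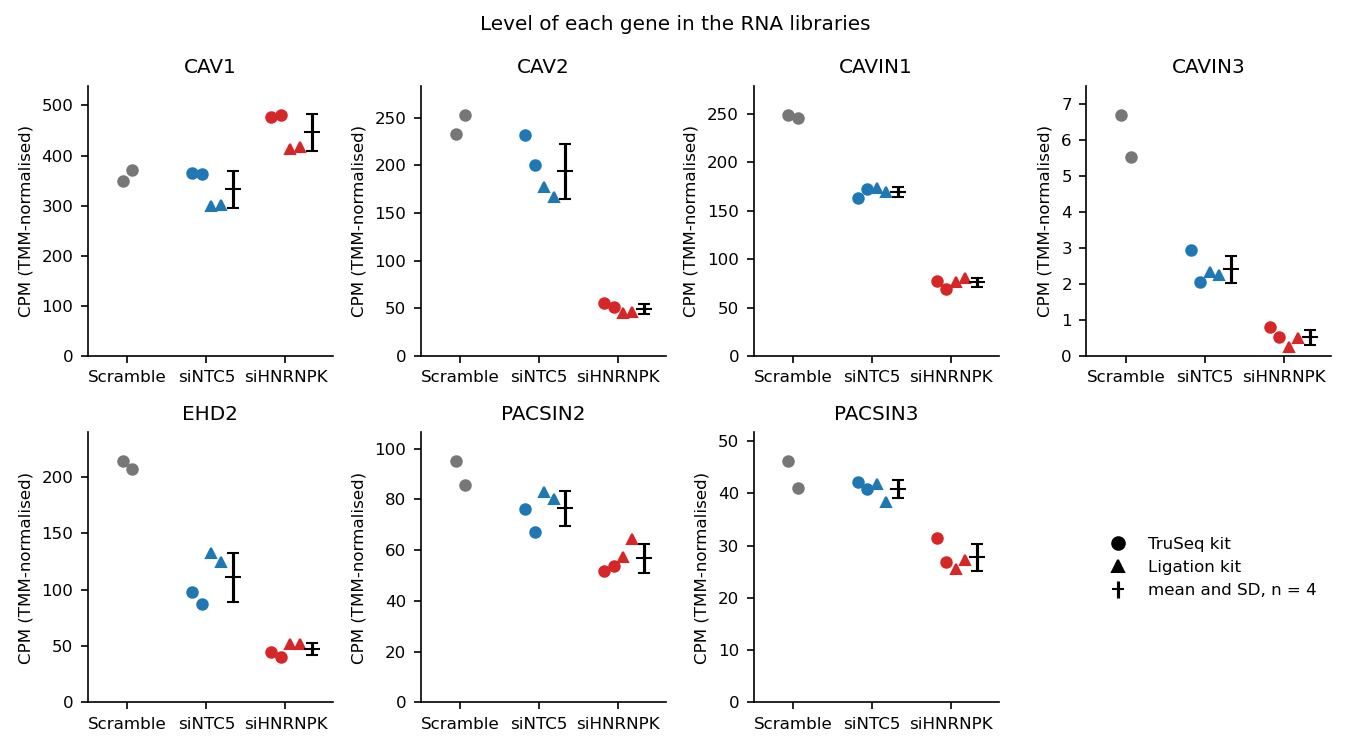
Normalised read count (CPM, vertical axis from 0, a scale of its own for each gene) in each library of Scramble, siNTC5 and HNRNPK siRNA; points are libraries, circles TruSeq and triangles Ligation, and black bars give the mean and SD of 4 libraries. CAV1 sits higher and the other 6 genes lower in the HNRNPK siRNA libraries than in every siNTC5 library.

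CAV1, the main structural protein of caveolae outside muscle, was measured at 366, 363, 298 and 299 CPM in siNTC5 replicates 1 to 4. In HNRNPK siRNA replicates 1 to 4 it was 477, 480, 415 and 419 CPM. All 4 depleted libraries lay above all 4 controls, and within each group the Ligation libraries were the lower ones. The mean rose from 331 ± 38.1 to 448 ± 35.8 CPM (SD, n = 4), or 0.44 as a log2 fold change (edgeR, SE 0.04, adjusted p = 8.58e-09). Within TruSeq the log2 fold change was 0.40 and within Ligation 0.47. Of all tested genes, 22.5% had a higher log2 fold change.

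CAV2, the partner that assembles with CAV1, was measured at 233, 199, 176 and 166 CPM in siNTC5 replicates 1 to 4. In HNRNPK siRNA replicates it was 56.2, 51.1, 45.3 and 45.9 CPM. The lowest control was far above the highest depleted library. The means were 194 ± 29.6 and 49.6 ± 5.09 CPM (SD, n = 4), so CAV2 stood at 25.6% of control, with a log2 fold change of -1.96 ± 0.06 (SE). It was -2.0 within TruSeq and -1.92 within Ligation. Only 1.15% of tested genes had a lower log2 fold change; CAV2 was selected on this contrast, so this rank describes the choice.

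Counting CAV2 against CAV1 inside each library removes library size and normalisation. There were 63.7, 54.9, 59.1 and 55.7 CAV2 reads per 100 CAV1 reads in siNTC5 replicates 1 to 4, while Scramble had 66.7 and 68.1. In HNRNPK siRNA replicates 1 to 4 there were 11.8, 10.6, 10.9 and 11.0. The 4 depleted libraries lay close together whichever kit was used, well below all 6 nontargeting libraries. These ratios are not corrected for transcript length and combine the higher CAV1 with the lower CAV2, on which CAV2 was selected.

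**Figure D2:**
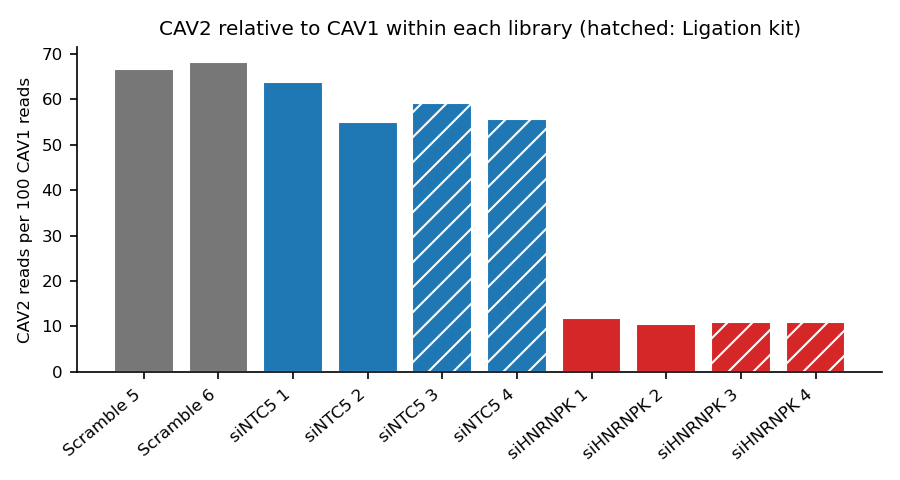
Reads of CAV2 per 100 reads of CAV1 (vertical axis, from 0) in each of the 10 RNA libraries, 1 bar a library, hatched for the Ligation kit. The nontargeting libraries stand between 54.9 and 68.1 and the HNRNPK siRNA libraries between 10.6 and 11.8.

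CAVIN1, without which caveolae do not form, was measured at 164, 172, 173 and 168 CPM in siNTC5 replicates and at 77.9, 69.1, 76.3 and 81.3 CPM in HNRNPK siRNA replicates. The groups were tight and far apart, with little difference between kits. Its mean fell from 169 ± 4.09 to 76.2 ± 5.13 CPM (SD, n = 4), or -1.15 as a log2 fold change (edgeR, SE 0.05, adjusted p = 5.63e-13). The value was -1.18 within TruSeq and -1.12 within Ligation, and 6.04% of tested genes had a lower one.

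CAVIN3, which binds CAVIN1, was scarcely detected. Its raw counts were 50, 49, 35 and 41 in siNTC5 replicates 1 to 4 and 12, 7, 3 and 6 in HNRNPK siRNA replicates, the lowest counts of any member. In CPM this was 2.96, 2.05, 2.33 and 2.24 against 0.791, 0.520, 0.253 and 0.494, so the groups did not overlap. The edgeR fit gave a log2 fold change of -2.16 with SE 0.30 and adjusted p = 3.18e-06. CAVIN3 passed the count filter through the siNTC5 libraries, which favours a fall, so this call is a description and no support. With so few reads its 95% interval ran from -2.79 to -1.53, and the kits gave -1.88 and -2.59.

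EHD2 was measured at 98.5, 87.6, 133 and 124 CPM in siNTC5 replicates and at 44.8, 40.6, 51.8 and 52.7 CPM in HNRNPK siRNA replicates. The Ligation libraries were the higher ones in both groups, yet every depleted library lay below every control. The mean fell from 111 ± 21.2 to 47.4 ± 5.78 CPM (SD, n = 4), or -1.21 as a log2 fold change (edgeR, SE 0.06, adjusted p = 3.36e-12). It was -1.11 within TruSeq and -1.31 within Ligation.

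PACSIN2 was measured at 76.4, 66.9, 82.4 and 79.7 CPM in siNTC5 replicates and at 51.8, 53.8, 57.6 and 64.9 CPM in HNRNPK siRNA replicates. The groups came close, with the lowest control at 66.9 CPM and the highest depleted library at 64.9 CPM. The edgeR fit gave a log2 fold change of -0.42 with SE 0.06 and adjusted p = 3.35e-06, and 25.5% of tested genes had a lower value. PACSIN3, whose product is most abundant in muscle, was measured at 42.3, 40.8, 41.6 and 38.0 CPM in siNTC5 replicates and at 31.4, 26.8, 25.6 and 27.4 CPM in HNRNPK siRNA replicates. The edgeR fit gave a log2 fold change of -0.54 with SE 0.07 and adjusted p = 1.43e-06. The groups of PACSIN3 were separate too. The kits gave similar values, with -0.43 and -0.41 for PACSIN2 and -0.50 and -0.59 for PACSIN3 in TruSeq and in Ligation libraries.

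By size the log2 fold changes ran from CAVIN3 (-2.16) through CAV2 (-1.96), EHD2 (-1.21), CAVIN1 (-1.15), PACSIN3 (-0.54) and PACSIN2 (-0.42) to CAV1 (0.44). The place of CAV2 in this order follows from its selection. Among the other 6 genes, the 95% intervals overlapped for EHD2 (-1.34 to -1.08) and CAVIN1 (-1.26 to -1.05), and for PACSIN3 (-0.69 to -0.40) and PACSIN2 (-0.54 to -0.30). The interval of CAVIN3 lay below the first pair, that pair lay below the second, and CAV1 (0.36 to 0.52) stood apart with its sign. The order within each pair is thus not resolved here.

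Whether the siRNA effect differed between kits was tested with an interaction term, a measure that did not choose CAV2. In edgeR 0 of 7 members passed an adjusted p of 0.05, where 0.129% of all genes did; adjusted p ran from 0.547 to 0.94, and 0 members had an unadjusted p under 0.05. The widest difference was that of CAVIN3, -0.70 ± 0.66 (SE) on the log2 scale, and for CAV2 it was 0.10 ± 0.11 (SE). The levels themselves did differ between kits for 4 of 7 members (28.5% of all tested genes passed). In both groups kit goes with replicate number, so kit and any other difference between those replicates cannot be told apart. In Ligation against TruSeq libraries CAV1 was lower by a log2 difference of -0.24 and CAV2 by -0.29, with adjusted p of 1.57e-04 and 8.21e-04 in edgeR. EHD2 was higher by 0.39 and PACSIN2 by 0.20, with adjusted p of 1.13e-04 and 0.0171. CAVIN1 (0.05), CAVIN3 (-0.25) and PACSIN3 (-0.10) did not pass.

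The comparison of Scramble with siNTC5 shows how far the members vary between nontargeting libraries. It used 14645 genes, with CAVIN1 and CAVIN3 found in the Scramble tables under their older symbols PTRF and PRKCDBP. Purification kit, depth, count table and possibly genome build differ together with the siRNA name and cannot be told apart. In edgeR 5 of 7 members were higher in Scramble; 37.5% of all genes were higher and 69.3% differed in either direction.

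EHD2 was at 214 and 207 CPM in the Scramble libraries, above all 4 siNTC5 libraries. Its log2 difference from siNTC5 was 1.14 (SE 0.07; adjusted p = 3.71e-11 in edgeR), close in size to the -1.21 of the knockdown. CAVIN3 was at 6.69 and 5.53 CPM, higher by 1.26 (SE 0.22; adjusted p = 5.52e-05 in edgeR). CAVIN1, at 249 and 246 CPM, was higher by 0.57 (SE 0.06; adjusted p = 4.74e-08 in edgeR). These 3 genes passed in all 9 alternatives tried for this comparison. For them the choice of nontargeting library moves the size of the knockdown difference but not its direction.

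PACSIN2 (95.0 and 85.8 CPM) was higher in Scramble by 0.34, with an adjusted p of 3.18e-04 in edgeR, but the call was lost without the kit term (adjusted p = 0.055) and with unscaled library totals (0.177). CAV2 was at 233 and 253 CPM in Scramble, a log2 difference of 0.19 with an adjusted p of 0.0171 in edgeR, and this call did not hold: it was lost in 5 of 9 alternatives. Without Scramble replicate 6 its adjusted p was 0.167, and in TruSeq libraries alone 0.0639. CAV1 was at 349 and 371 CPM and did not pass (0.00, adjusted p = 0.972); PACSIN3 did not pass either (0.05, adjusted p = 0.605). The median over all genes was 0.039, and it moved to -0.096 with upper-quartile scaling and to -0.196 with unscaled totals. Under those scalings CAV1 was at -0.13 and -0.23 and passed as lower (adjusted p = 0.0196 and 2.21e-04), CAV2 was at 0.05 and -0.05, and PACSIN3 at -0.08 and -0.18. Relative to the median of all genes CAV1 was at -0.04, CAV2 at 0.15 and PACSIN3 at 0.01 under all 3 scalings. A change of scaling moves all genes nearly alike, so these values had to stay the same and are no check of the calls.

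Against Scramble in place of siNTC5, the HNRNPK siRNA libraries had log2 differences of 0.43 for CAV1, -2.16 for CAV2, -1.73 for CAVIN1 and -3.42 for CAVIN3. Those of EHD2, PACSIN2 and PACSIN3 were -2.36, -0.77 and -0.60. CAV1 was thus again the only member on the higher side, with TMM at nearly the value found against siNTC5. With upper-quartile scaling and unscaled totals CAV1 in Scramble was at -0.13 and -0.23 against siNTC5, so this closeness depends on the scaling. The depleted libraries are the same in both contrasts, so the values are set side by side and are not separate evidence.

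**Figure D3:**
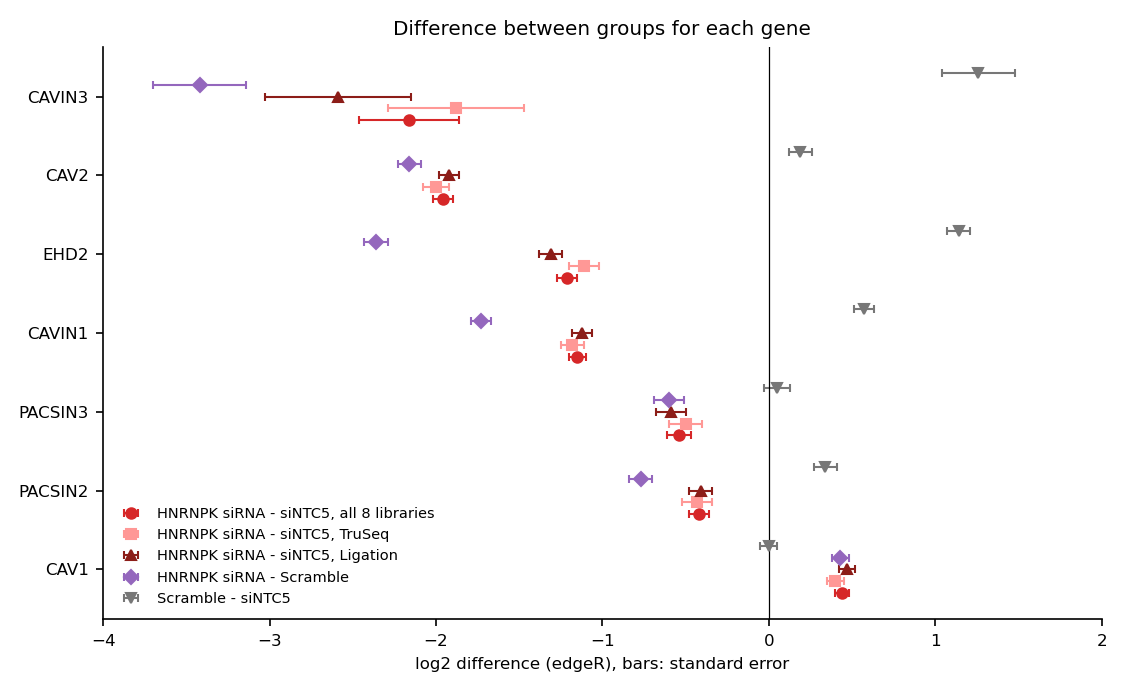
Log2 difference between groups (horizontal axis) with its standard error for each gene (rows), for HNRNPK siRNA against siNTC5 in all 8 libraries and within each kit, for HNRNPK siRNA against Scramble, and for Scramble against siNTC5. CAV1 lies right of 0 and the other 6 genes left of 0 in every contrast with HNRNPK siRNA, and the Scramble libraries of CAVIN3, EHD2 and CAVIN1 lie 1.26, 1.14 and 0.57 above siNTC5.

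Around CAV2, 4 other genes within 500 kb were tested besides CAV1, and 2 of them were called, both higher, where 71.5% of all genes were called and 35.5% were higher. TES, a focal adhesion protein gene upstream of CAV2, rose from 149 ± 1.99 to 250 ± 18.9 CPM (SD, n = 4), with an edgeR log2 fold change of 0.75 (adjusted p = 7.58e-11). ST7, downstream, rose with a log2 fold change of 0.60 and an adjusted p of 1.37e-05. MET, the hepatocyte growth factor receptor gene, had 0.07 (adjusted p = 0.123), and CAPZA2, a capping protein subunit of actin filaments, had 0.01 (adjusted p = 0.887). Against the Scramble libraries the neighbours stood otherwise: TES, at 265 CPM there, had a log2 difference of -0.05 (SE 0.06) in HNRNPK siRNA libraries and MET had -0.55 (SE 0.05), while ST7 had 1.35 and CAPZA2 -0.01. The rise of TES was thus seen against siNTC5 alone, and MET was on the lower side with CAV2 against Scramble. The remaining 5 neighbours in the count table, TFEC, LOC102724434, LINC01510, ST7-AS1 and ST7-OT4, had too few counts to be tested.

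Called chromatin domains were compared with the gene bodies, without replicates. CAVIN3 was the only member with at least 50% of its body in a domain: it lay wholly in an H3K27me3 domain of 930 kb at chr11:5490001-6420000, listed with the same edges in control and depleted cells and with deposited scores of 1.728 and 1.652. H3K27me3 is the mark of Polycomb-repressed chromatin. Of 13481 tested genes with a position, 9.84% lay in H3K27me3 domains in control and 8.41% in depleted cells. No member lay in the H3K9me2 domains (1.20% of genes), the H3K9me3 domains (2.94% in control and 5.90% in depleted cells) or the lamin B1 domains (2.96% and 2.57%). A minimum domain length of 100 kb could not change this for CAVIN3, since its domain is 930 kb long. The strand of CAVIN3 was not at hand, so its start window was the whole gene with 2 kb on each side. That window is not a separate check.

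The domain nearest to the caveolin pair was an H3K9me3 domain of 125 kb at chr7:116270001-116395000, found in the depleted list alone, with a deposited score of 0.839. It ended 104.7 kb before CAV2 and 130.0 kb before CAV1, between TES and CAV2. In the control list the nearest H3K9me3 domain was 4726.5 kb from CAV2. A lamin B1 domain 108.9 kb from CAVIN3 was in the control list, where the nearest in the depleted list was 14364.5 kb away. For PACSIN2 the nearest lamin B1 domain was 109.9 kb away in depleted and 309.9 kb in control cells. With 1 list per antibody and siRNA, a domain in one list and not in another has no replicate check.

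**Figure D4:**
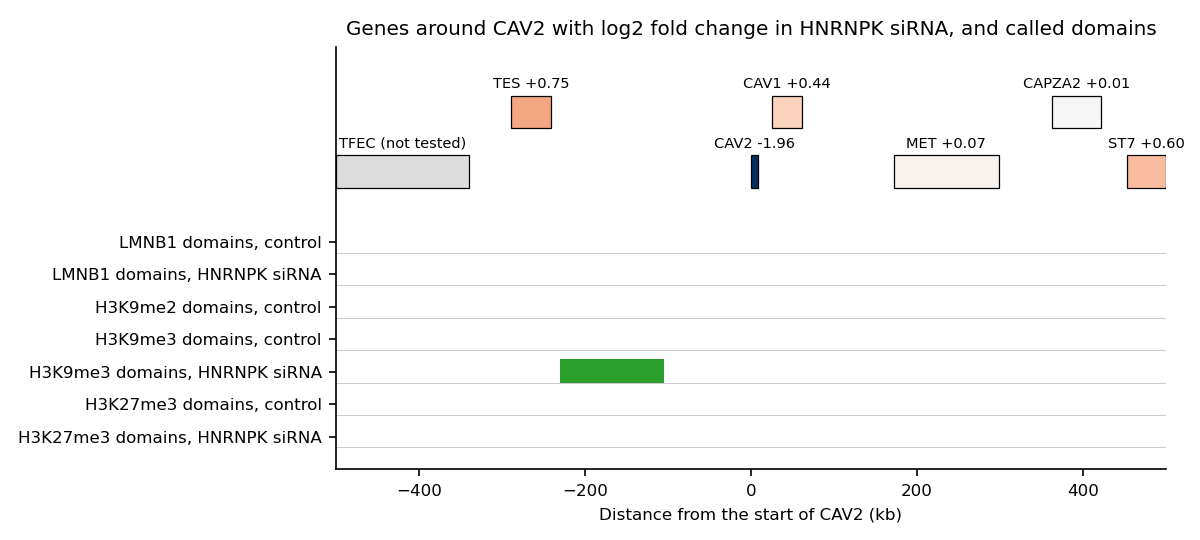
Protein-coding genes within 500 kb of the start of CAV2 (horizontal axis, distance in kb), coloured and labelled by log2 fold change after HNRNPK siRNA, above the domains of the 7 lists, 1 line a list. CAV2 (-1.96) lies between TES (0.75) and CAV1 (0.44), and the one domain in the window is that of H3K9me3 in depleted cells.

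Other genes of the pathway were counted from 5 lists, where those that passed are said to rise or fall. These lists were also drawn up with earlier results of these data known. Of all tested genes 71.5% passed, 35.5% higher and 36.1% lower. Among 13 paralogs and partners of the caveola proteins, 10 were tested, 2 rose and 7 fell, with a median log2 fold change of -0.29 against -0.004 for all tested genes. EHD1, the paralog of EHD2 that acts in endosome recycling, fell from 55.1 ± 6.53 to 25.3 ± 2.31 CPM (SD, n = 4), with an edgeR log2 fold change of -1.12 (adjusted p = 4.01e-11). EHD4 fell by 0.64 on the log2 scale, and DNM2, the dynamin that cuts the neck, fell by 0.66. CAVIN4, the muscle cavin, rose with 0.65 but was at 2.01 CPM in controls. ROR1, a receptor that binds CAVIN1 and CAV1, had -0.01 and did not pass, and CAV3, CAVIN2 and EHD3 were not tested for low counts.

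Flotillins form membrane microdomains of their own, beside caveolae. FLOT1 rose from 2.29 ± 0.363 to 8.56 ± 2.04 CPM (SD, n = 4), with an edgeR log2 fold change of 1.88 (adjusted p = 6.29e-09). FLOT1 lies in the major histocompatibility region, for which GRCh38 holds alternate copies, and how reads with several matches were counted is not given in the sources used here, so its level is uncertain. In the Scramble libraries FLOT1 was at 93.6 and 89.4 CPM, and the HNRNPK siRNA libraries differed from these by -3.65 (SE 0.12) on the log2 scale, so its direction turns with the nontargeting libraries used. The stomatin gene STOM rose with 0.82, and FLOT2, the partner of FLOT1, fell by 0.29 on the log2 scale. The median of the 3 was 0.82.

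In the clathrin coat, the other main route of coated uptake, 19 genes were tested, 6 rose and 11 fell, with a median of -0.30. HIP1 and EPN2, adaptors that link clathrin to actin and to the membrane, fell most, with log2 fold changes of -1.22 and -1.07 and adjusted p of 3.80e-11 and 1.56e-10 in edgeR. Of 19 tested F-BAR genes 4 rose and 10 fell, with a median of -0.15, and none reached a log2 fold change of 1 in size. Among 9 tested receptors and enzymes known from caveolae, 2 rose and 3 fell, with a median of -0.07. TGFBR2, a receptor of transforming growth factor beta, rose from 69.4 ± 2.34 to 141 ± 5.97 CPM (SD, n = 4), with an edgeR log2 fold change of 1.02 (adjusted p = 1.86e-12). SCARB1, the receptor of high-density lipoprotein, fell from 212 ± 7.56 to 78.5 ± 3.57 CPM (SD, n = 4), with an edgeR log2 fold change of -1.44 (adjusted p = 1.44e-14). Over the 5 lists, with each gene once, 46 of 58 tested genes passed, 15 higher and 31 lower. Of all tested genes 71.5% passed, 35.5% higher and 36.1% lower. These counts are against siNTC5, and some list genes that rose or fell turned direction against Scramble. Of the list genes named for their size, FLOT1 turned, as given above. EHD1, HIP1, EPN2, TGFBR2 and SCARB1 kept their direction, at -2.22, -1.38, -1.99, 0.78 and -1.07 against Scramble.

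**Figure D5:**
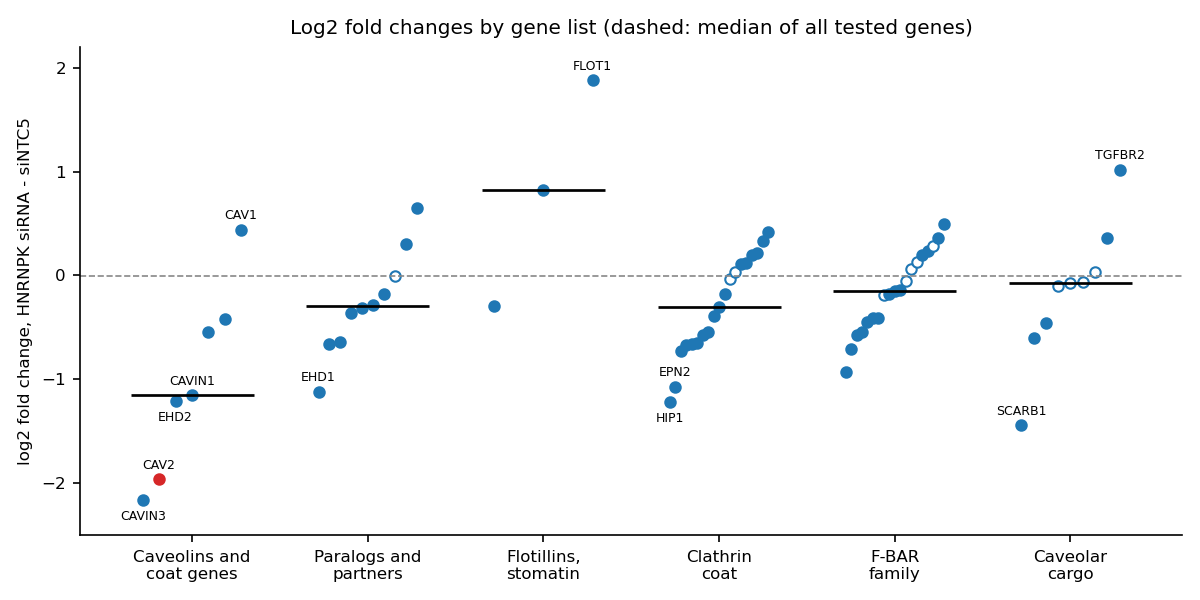
Log2 fold change after HNRNPK siRNA (vertical axis) of each tested gene in 6 lists, open where the adjusted p was 0.05 or more. CAV2 is red and drawn filled without a test. Lines are list medians and the dashed line is the median of all tested genes (-0.004). The medians run from -1.15 for the 7 caveolin and coat genes, chosen with CAV2 among them, to 0.82 for the flotillins and stomatin.

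Likeness of pattern was measured by Pearson's r of log2 CPM over the 8 libraries after each kit mean was subtracted, among 9997 genes with an average log2 CPM of at least 3. The libraries share the treatment, so a high r mostly means that the groups separate in the same way. Among the genes closest to CAV2 were ARNTL2, PPP1R13L, FAM89B and DUSP4, with r from 0.9991 to 0.9995 and log2 fold changes of -0.91, -1.69, -2.03 and -1.76. Closest to CAV1 were KRT80, HSPA5, HUS1, LATS1 and CXCL8, with r from 0.9995 to 0.9997 and log2 fold changes of 4.50, 1.42, 1.07, 0.71 and 4.37. KRT80 and CXCL8 were at 2.36 and 1.58 CPM in siNTC5 libraries and at 54.8 and 33.2 CPM after HNRNPK siRNA. They thus reached the level asked for through the HNRNPK siRNA libraries. HSPA5 was at 2600 CPM in the Scramble libraries, and against them its log2 difference was 0.08 (SE 0.06) in place of 1.42. By the same measure CAV2 had r = 0.995 with CAVIN1 and with EHD2, 0.975 with PACSIN3, 0.968 with CAVIN3 and 0.963 with PACSIN2. With CAV1 it was -0.989. CAV2 was chosen on these libraries, so these values describe the choice.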

How the data were processed

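Raw gene counts were deposited by the authors as 1 table of 8 libraries and 2 single tables for Scramble; reads were aligned with STAR 2.7.1a and counted with featureCounts (Subread 2.0.6 for the 8 libraries) on hg38, per the submitters' processing notes, which also list hg19 for Scramble. Each domain list gives 1 deposited score per domain, whose unit, caller and pooling are not given in the sources used here. The 8 libraries were analysed in edgeR 4.0.16 (R 4.3.3) with filterByExpr, TMM, kit and treatment in the model, the quasi-likelihood test and Benjamini-Hochberg adjustment over 13933 genes. All 7 members passed the filter, CAVIN3 through its siNTC5 libraries. Scramble was compared in a 10-library fit over the 25531 shared names. Alternatives used DESeq2 1.42.0 among others. Steps were tested on simulated data. Gene positions and promoters come from RefSeq (GRCh38.p14), with 4 of 7 members in the promoter table.

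The members and gene lists were chosen with earlier results of these data known. Genes were named by rule: the 7 members, HNRNPK, tested genes within 500 kb of CAV2, called list genes with a log2 fold change of 1 or more in size, and the 5 genes most like CAV2 and most like CAV1, of which 1 is not reported here. EHD4, DNM2, CAVIN4, ROR1, STOM, FLOT2 and the cell type markers were added to show the lists. Same-numbered libraries deviated together from their group means (r of 0.1004, 0.4246, 0.3365 and 0.2653 over genes, in the order of replicates 1 to 4), which the shared kit goes with: within kits r was 0.0582 and 0.009.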

Additional observations from a re-analysis of the deposited data

How the results depend on the processing

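Without CAV2, 6 members were called in the knockdown comparison, where 9968 of 13933 tested genes were. With a log2 fold change of at least 1 in size also asked for, 3 members and 2195 genes were called. CAV1, PACSIN2 and PACSIN3 did not reach that size. With the Scramble libraries added as controls, 6 members and 6969 of 13463 genes were called. With a mean of at least 50 counts 5 members were called, because CAVIN3 was no longer tested. The fit with a replicate block in place of kit called 6 members. With each library left out in turn 6 members were called throughout, where 9612 to 9997 genes passed. Apart from that minimum fold, the 6 genes kept their calls in each alternative where they were tested, and none of them changed direction. CAV2 did not change direction either, but it was chosen for its fall in these libraries, so its values describe the choice. The log2 fold change of CAV1 ranged from 0.40 to 0.47, CAV2 from -2.01 to -1.91, CAVIN1 from -1.33 to -1.12, CAVIN3 from -2.66 to -1.88, EHD2 from -1.60 to -1.11, PACSIN2 from -0.52 to -0.38 and PACSIN3 from -0.61 to -0.50. The highest adjusted p among them was 0.00263, that of PACSIN2 with the Scramble libraries added as controls. Over the 5 pathway lists 46 genes were called, against 45 with the replicate block and 37 with no kit term. Of all 13933 tested genes, 9968, 9872 and 8719 passed in these 3 fits. The low counts of CAVIN3 limit its precision. Unscaled library totals and robust dispersion were chosen after seeing the data.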
